A study of Homo sapiens with 6 samples.

Results

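The aminoacyl-tRNA synthetase genes were read out in K562 cells in which METTL3 or METTL14 had been knocked down. The group was listed by gene symbol and not by a measured value, but it was chosen with earlier results of these data known. It held 36 genes of the 61661 identifiers in the count table. Of these, 20 encode cytosolic enzymes and 16 encode mitochondrial enzymes. All 36 passed the filter on low counts and were among the 17686 genes tested.

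Aminoacyl-tRNA synthetases attach each amino acid to its matching tRNA, the step that fixes the genetic code before translation on the ribosome. The cytosol and the mitochondrion keep largely separate sets of these enzymes, both encoded in the nucleus, and several cytosolic enzymes sit together in a multi-synthetase complex. When amino acids run short, the kinase GCN2 raises translation of the transcription factor ATF4, which is known to induce many cytosolic synthetase genes together with genes of amino acid synthesis and uptake.

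K562 is an established line from the blast crisis of chronic myeloid leukaemia. METTL3 is the catalytic subunit and METTL14 the RNA-binding partner of the writer that places N6-methyladenosine on mRNA. The 3 groups were control cells (shCTR), which carried a nonsense hairpin, cells with a hairpin to METTL3 (shMETTL3) and cells with a hairpin to METTL14 (shMETTL14), each as 2 libraries. The study's methods describe lentiviral vectors with GFP and puromycin resistance and stable puromycin-selected lines, so the shCTR cells shared the transduction and the selection. They do not describe the METTL14 line or its hairpin. With 1 line per target, effects of the target and of the hairpin elsewhere cannot be told apart. No source gives a time point, or says whether the 2 libraries of a group came from separate cultures. The p-values thus measure the spread between libraries, which may be technical. That spread was estimated over the 3 groups together, though the shCTR replicates differed most. The mean chi-square per gene, a measure of the difference between replicate counts, was 5.51 in shCTR, 3.1 in shMETTL3 and 2.59 in shMETTL14. In these bulk libraries a lower level cannot be told apart from less RNA per cell relative to the rest.

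The 6 libraries held 19292574 to 20115304 counted reads. METTL3 was at 90.5 and 90.3 CPM (reads scaled to a common library total) in shCTR, 52.5 and 46.7 in shMETTL3, and 88.1 and 76.4 in shMETTL14. METTL14 was at 33.2 and 34.2 CPM in shCTR, 38.3 and 35.4 in shMETTL3, and 19.1 and 20.6 in shMETTL14. Each targeted mRNA was thus lowest in the libraries labelled with its hairpin, by a log2 fold change of -0.87 for METTL3 and -0.76 for METTL14. All 15 erythroid and K562 markers were tested. Their summed level was 2231 to 2246 CPM in shCTR, 2435 to 2509 in shMETTL3 and 2276 to 2313 in shMETTL14. Single markers moved both ways, from -1.01 for KIT to 1.77 for ALAS2 on the log2 scale in shMETTL3. In shMETTL14 the same genes had -0.54 and 1.19. In each knockdown 5 were higher and 2 lower at an adjusted p under 0.05 in edgeR. That was 46.7%, beside 16.5% of all genes in shMETTL3 and 6.69% in shMETTL14. T cell, B cell and fibroblast markers summed to at most 7.23 CPM in any library. The 5 monocyte markers, of which 2 were tested, summed to 42.9 to 44.4 CPM in shCTR, 16.2 to 17.6 in shMETTL3 and 60.9 to 66.5 in shMETTL14. Nearly all of that sum was LYZ. It was at 42 and 43.9 CPM in shCTR, 16.5 and 15.4 in shMETTL3, and 59.9 and 64.9 in shMETTL14. Of the 5 epithelial markers 4 were tested and CDH1 was at 0. They summed to 501 to 525 CPM in shCTR, 399 to 419 in shMETTL3 and 546 to 575 in shMETTL14. The sum hid opposite changes in shMETTL14, where EPCAM had a log2 fold change of -0.40 and KRT19 one of 0.47. KRT8 and KRT18 had 0.15 and 0.03 there. The part of these marker differences in the results below was not tested.

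Some synthetase promoters hold the letters of the motif through which ATF4 is known to act, and those stretches are shown here because the ATF4-listed enzymes are compared with the others below. RefSeq promoters on GRCh38.p14 (250 bases before to 50 after the start) were at hand for 30 of the 36 genes. The letters TGATGNAA, the core of the C/EBP-ATF response element, were searched on both strands. They occurred in 8 of the 30 genes, against 3.62% of 35116 promoters. The 30 genes had 39 promoter entries, and a gene counted if any of its entries matched. The first share is thus per gene and the second per promoter, which raises the first. N stands for any base, and a match is a description of the sequence, not of binding. Of the 10 ATF4-listed cytosolic genes with a promoter entry, 7 held the letters, and the remaining match was in the mitochondrial YARS2. In the stretches below, written 5′ to 3′ on the strand named, the capitals mark the motif.
AARS1, chr16:70289676-70289703, plus strand: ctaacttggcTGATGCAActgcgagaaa
CARS1, chr11:3057408-3057435, plus strand: tcctagaatcTGATGCAAccgccgcccc
GARS1, chr7:30594835-30594862, minus strand: gctcggagcaTGATGAAAtcgccgcgta
IARS1, chr9:92293693-92293720, plus strand: cgcacggaggTGATGCAAcgcgctgaaa
MARS1, chr12:57488054-57488081, minus strand: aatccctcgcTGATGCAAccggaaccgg
NARS1, chr18:57621805-57621832, minus strand: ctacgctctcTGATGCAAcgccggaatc
TARS1, chr5:33440957-33440984, minus strand: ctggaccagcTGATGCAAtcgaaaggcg
YARS2, chr12:32756077-32756104, minus strand: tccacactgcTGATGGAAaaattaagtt

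The letters were not in the promoter windows of FARSB, KARS1, RARS1 and NARS2, the 4 genes that fell in both knockdowns. Their windows were also searched for CCGGAA, the core of ETS family sites, on both strands, and KARS1 and RARS1 held it. That core was in 20 of the 30 genes and in 17.2% of all promoters, and the E-box CACGTG was in 4 of the 30 and in 7.26% of all promoters. These shares too are per gene for the synthetases and per promoter for the rest. The 2 stretches with the ETS core are given on the gene's own strand, with the core or its reverse complement in capitals.
KARS1, chr16:75647705-75647730, minus strand: cccctctcccCCGGAAgaggtggggc
RARS1, chr5:168486427-168486452, plus strand: gggtttccgcTTCCGGgagaggctga

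Cytosolic synthetase mRNAs were far more abundant than mitochondrial ones. Per kilobase of transcript, the median cytosolic level was 108 and 99.9 CPM per kb in the 2 shCTR libraries, and the median mitochondrial level was 14.5 and 14.6, a ratio of 7.15. In shMETTL3 the cytosolic medians were 98.5 and 95.5 CPM per kb and the mitochondrial medians 14.7 and 14.4, and in shMETTL14 they were 98.3 and 93.6 against 15 and 14.5. The 2 classes were thus separated by about the same distance in every library. The cytosolic genes took 0.772 to 0.823% of all reads, and the mitochondrial genes 0.0839 to 0.0883%.

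The highest levels in shCTR belonged to AARS1, which charges alanine tRNA, at 330 ± 7.6 CPM per kb (SD, n = 2), to SARS1 for serine at 319 ± 3.68 and to WARS1 for tryptophan at 305 ± 0.29. The spread of AARS1 and SARS1 left their order uncertain. GARS1 for glycine followed at 230 ± 7.36. Above the highest mitochondrial gene, IARS2 for isoleucine at 52.3 ± 2.34, stood 16 cytosolic genes. The remaining 4 cytosolic genes were RARS1, FARSB, HARS1 and TARS3, and the last of these, a second threonyl enzyme, was the lowest at 5.19 ± 0.307. The lowest mitochondrial gene was SARS2 at 0.75 ± 0.0168 CPM per kb. It rested on 16 to 38 reads per library, and 57.0% of its exonic length is shared with AC011455.2 or MRPS12, so its count depended on how reads in shared exons were assigned. The next lowest was PARS2 at 7.6 ± 0.836, with at least 321 reads in every library.

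**Figure D1:**
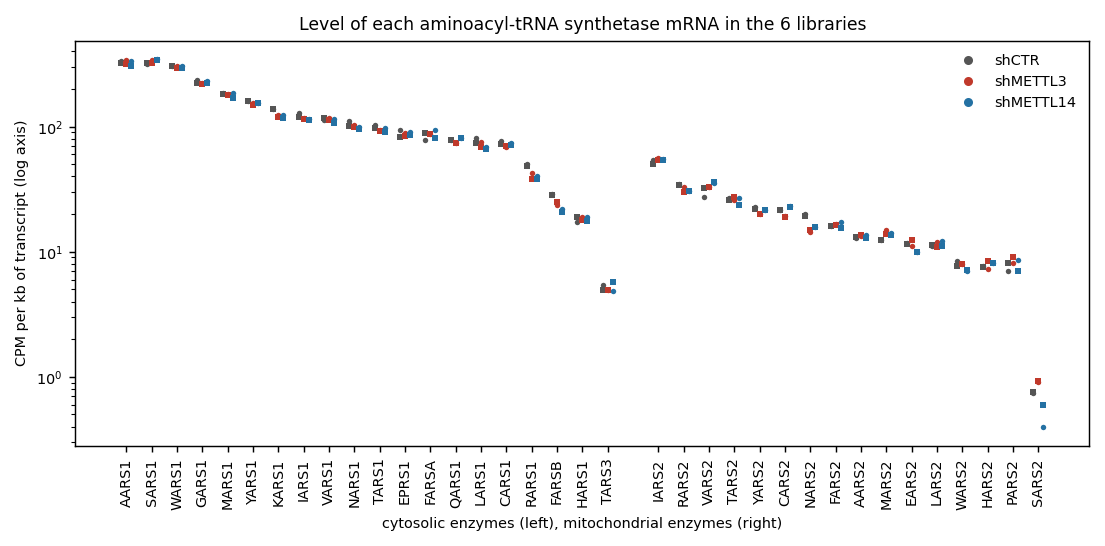
Level of each of the 36 synthetase mRNAs in CPM per kb of transcript (log axis), with 1 point per library, circles for replicate 1 and squares for replicate 2, coloured by group. Cytosolic enzymes (left) ran from 330 CPM per kb for AARS1 to 5.19 for TARS3 in shCTR, and mitochondrial enzymes (right) from 52.3 for IARS2 to 0.75 for SARS2.

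Knockdown of METTL3 lowered 4 of the 36 synthetase mRNAs and raised none at a Benjamini-Hochberg adjusted p under 0.05 over all genes (quasi-likelihood test of edgeR). DESeq2 called the same 4, and at an unadjusted p under 0.05 there were 1 higher and 6 lower. The 4 were NARS2, RARS1, FARSB and KARS1, with log2 fold changes of -0.42 to -0.18. Among all genes tested 8.73% passed as higher and 7.73% as lower, and of the synthetases 11.1% passed as lower. Of these, 3 were cytosolic (of 20) and 1 was mitochondrial (of 16). Without either shMETTL3 library NARS2 still passed, RARS1 passed without replicate 1 but not without replicate 2 (-0.22), and FARSB and KARS1 did not pass in either case. The median log2 fold change was -0.08 for the cytosolic genes and 0.03 for the mitochondrial genes, against 0.00 for all genes. For 29 of the 36 genes the 95% interval of the fold change lay within 1.25-fold either way, as it did for 32.8% of all genes, many of which are at lower levels. In the level range of the synthetases other than SARS2, which lies far below the rest, 18.6 to 1135 CPM, 21.6% of 8304 genes passed in either direction. Of these 8304 genes, 695 passed as higher and 1100 as lower.

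Knockdown of METTL14 lowered FARSB, RARS1, NARS2 and KARS1 and raised VARS2. That was 11.1% of the 36 passing as lower and 2.78% as higher, beside 3.26% and 3.43% of all genes. Of the 4 that fell, 3 were cytosolic, and NARS2 and VARS2 were mitochondrial. With either shMETTL14 library left out, FARSB was the 1 synthetase that passed. The median log2 fold change was -0.04 for the cytosolic and 0.02 for the mitochondrial genes. The 95% interval lay within 1.25-fold for 25 of the 36, beside 37.5% of all genes. In the same level range, which leaves out SARS2, 9.26% of genes passed in either direction. Of the 8304 genes there, 346 passed as higher and 423 as lower. Both knockdowns were compared with the same 2 shCTR libraries, so the lists are not independent.

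**Figure D2:**
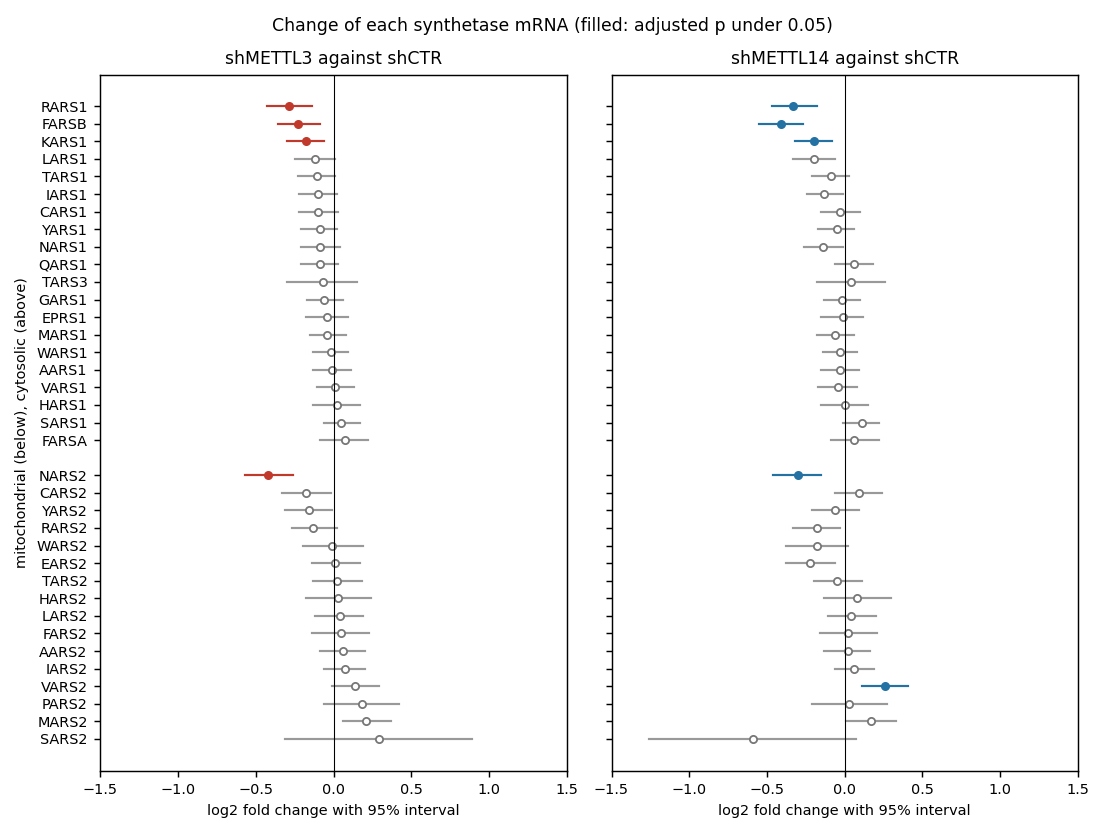
Log2 fold change of each synthetase mRNA against shCTR with its 95% interval, for shMETTL3 (left) and shMETTL14 (right), cytosolic enzymes above and mitochondrial below, filled where the adjusted p was under 0.05. RARS1, FARSB, KARS1 and NARS2 lay below 0 in both panels, VARS2 lay above 0 in shMETTL14 at 0.26, and SARS2 had the widest interval.

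NARS2, which charges mitochondrial asparagine tRNA, was at 50.3 and 48.3 CPM in shCTR, 36.5 and 37.4 in shMETTL3, and 39.9 and 40 in shMETTL14. Both knockdown groups lay below both controls without overlap. The log2 fold change was -0.42 ± 0.0735 (SE) in shMETTL3, with an adjusted p of 0.000654 in edgeR's quasi-likelihood test. In shMETTL14 it was -0.30 ± 0.0731, with an adjusted p of 0.0145 in the same edgeR test. The direct comparison of the knockdowns gave -0.11, with an interval of -0.27 to 0.05, and did not pass. The gene lies at chr11:78435961-78574874 on the minus strand (GRCh38, GENCODE 29), and the cytosolic asparaginyl enzyme NARS1 had a log2 fold change of -0.09 in shMETTL3 and -0.14 in shMETTL14, neither past the threshold.

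FARSB encodes the beta subunit of the cytosolic phenylalanyl enzyme, which works as a tetramer with the alpha subunit FARSA. It was at 97.2 and 95.1 CPM in shCTR, 79.8 and 84.6 in shMETTL3, and 74.6 and 70.5 in shMETTL14. The 3 groups did not overlap, and shMETTL14 was the lowest. The log2 fold change was -0.41 ± 0.0665 in shMETTL14 and -0.23 ± 0.066 in shMETTL3, with adjusted p-values of 0.0006 and 0.0227 in edgeR's quasi-likelihood test. The difference between the knockdowns, 0.18 with an interval of 0.04 to 0.32, had an adjusted p of 0.0911 in edgeR. The call in shMETTL3 was lost without shCTR replicate 1, at -0.21, without either shMETTL3 library, at -0.18 and -0.27, with scaling to library size alone, at -0.17, and with trends on GC content and length removed, at -0.16.

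The partner subunit did not follow. FARSA was at 161 and 184 CPM in shCTR, 181 and 181 in shMETTL3, and 193 and 167 in shMETTL14, with overlapping values and log2 fold changes of 0.07 and 0.06. For each FARSA read there were 0.602 and 0.518 FARSB reads in the shCTR libraries, 0.441 and 0.468 in shMETTL3, and 0.386 and 0.422 in shMETTL14. This ratio of raw counts, not scaled to length, was lower in all 4 knockdown libraries than in both controls, and it was not tested. The mitochondrial phenylalanyl enzyme FARS2 is a single chain and had log2 fold changes of 0.05 and 0.02, neither past the threshold.

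RARS1 charges cytosolic arginine tRNA and is an enzyme of the multi-synthetase complex. It was at 109 and 104 CPM in shCTR, 91.1 and 82.7 in shMETTL3, and 87.1 and 82.1 in shMETTL14. All knockdown libraries lay below both controls, and the 2 knockdowns overlapped. Its log2 fold change was -0.29 ± 0.0687 in shMETTL3 and -0.33 ± 0.0689 in shMETTL14, with adjusted p-values of 0.00701 and 0.00601 in edgeR.

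KARS1 makes the lysyl enzyme of both compartments from 1 gene. It was at 333 and 335 CPM in shCTR, 300 and 288 in shMETTL3, and 298 and 284 in shMETTL14. The knockdown libraries again lay below both controls. The change was the smallest of those that passed, at -0.18 ± 0.0576 and -0.20 ± 0.0577 on the log2 scale, with adjusted p-values of 0.0332 and 0.0398 in edgeR. With no filter on low counts, with scaling to library size alone and in fits on the compared groups only, KARS1 passed in neither knockdown. GARS1, which also serves both compartments, was at 620 and 593 CPM in shCTR, 586 and 580 in shMETTL3, and 607 and 591 in shMETTL14, and passed in no comparison.

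Pseudogenes could draw reads from these genes. The listed pseudogenes of FARSB, RARS1 and KARS1 held at most 2 reads in any library. How reads matching several places were handled is not given, so these counts cannot show whether such reads were lost.

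**Figure D3:**
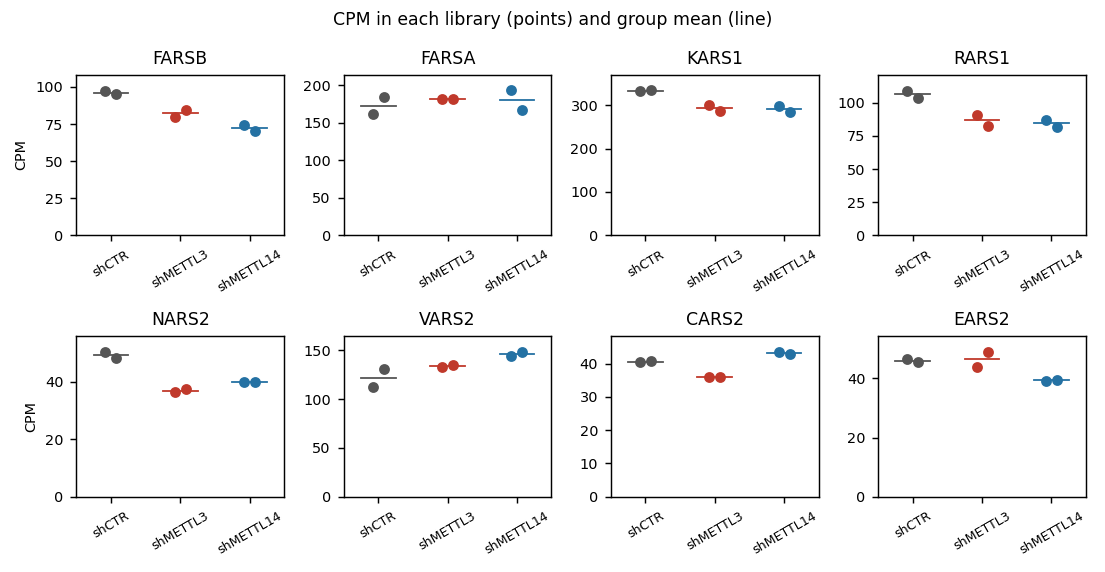
CPM in each library (points, 2 per group) and group mean (line) for the 7 genes that passed in any comparison and for FARSA, with each axis starting at 0. FARSB, KARS1, RARS1 and NARS2 were lower in all 4 knockdown libraries than in both shCTR libraries, whereas FARSA overlapped between groups.

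VARS2, the mitochondrial valyl enzyme, rose after METTL14 knockdown. It was at 112 and 131 CPM in shCTR, 133 and 135 in shMETTL3, and 144 and 148 in shMETTL14. The 2 controls differed by more than the libraries within either knockdown did. The log2 fold change was 0.26 ± 0.0704 in shMETTL14, with an adjusted p of 0.0301 in edgeR, and 0.14 ± 0.0705 in shMETTL3, where it did not pass. Of its exonic length 22.0% is shared on the same strand with GTF2H4, a subunit of a general transcription factor, so reads there could belong to either gene. Without replicate 1 of shCTR, the lower control, the change in shMETTL14 was 0.15 and no longer passed.

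CARS2 and EARS2, the mitochondrial cysteinyl and glutamyl enzymes, differed between the knockdowns. Compared directly, 1 gene of 36 was higher and 1 lower in shMETTL3 than in shMETTL14, 2.78% each way, beside 6.65% higher and 5.49% lower among all genes. None of the 20 cytosolic genes passed in edgeR or DESeq2, with 1 higher and 1 lower at an unadjusted p under 0.05. CARS2 was at 40.6 and 40.7 CPM in shCTR, 36 and 35.9 in shMETTL3, and 43.6 and 42.9 in shMETTL14. It stood below the controls in one knockdown and above them in the other, and the direct difference was -0.27 ± 0.0742 with an adjusted p of 0.0211 in edgeR. EARS2 was at 46.5 and 45.5 CPM in shCTR, 43.9 and 49 in shMETTL3, and 39.2 and 39.6 in shMETTL14. Only the shMETTL14 libraries stood apart, with a direct difference of 0.24 ± 0.0768 and an adjusted p of 0.0494 in edgeR. Neither gene passed against shCTR, where the adjusted p-values in edgeR ran from 0.0919 to 0.929. DESeq2 called neither gene in the direct comparison.

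EARS2 also takes part in the mitochondrial glutamine pathway, in which glutamate is first placed on the glutamine tRNA and then amidated by the products of QRSL1, GATB and GATC. The cytosolic glutaminyl enzyme QARS1 has no mitochondrial namesake among the 36. QARS1 was at 222 and 222 CPM in shCTR, 210 and 209 in shMETTL3, and 231 and 231 in shMETTL14. Its direct difference was -0.14 with an adjusted p of 0.12 in edgeR, which missed the threshold. Of the 17 mitochondrial partners, that amidating enzyme among them, TRIT1, which modifies adenosine beside the anticodon, fell after METTL3 knockdown by 0.19 on the log2 scale. That was 5.88% of the 17, beside 7.73% of all genes passing as lower. None passed after METTL14 knockdown, where 3 were lower at an unadjusted p under 0.05. PRORP, the protein subunit that cuts the 5′ end of mitochondrial tRNA, was lower in shMETTL3 than in shMETTL14. It was the only one of the 17 to pass there, 5.88% beside 5.49% of all genes lower. DESeq2 called 0 of the 17 in any comparison.

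Among the mitochondrial enzymes that did not pass against shCTR, MARS2, the methionyl enzyme, came closest to rising. It was at 37.4 and 37.5 CPM in shCTR, 45.1 and 41.8 in shMETTL3, and 42.8 and 41.2 in shMETTL14. All 4 knockdown libraries lay above both controls, and the log2 fold change was 0.21 ± 0.0762 after METTL3 knockdown and 0.17 ± 0.0765 after METTL14 knockdown. The adjusted p-values in edgeR were 0.0603 and 0.222. With trends on GC content and length removed it passed in shMETTL3. RARS2, the mitochondrial arginyl enzyme, had log2 fold changes of -0.13 and -0.18 beside the -0.29 and -0.33 of its cytosolic namesake, and did not pass. YARS2 for tyrosine had -0.16 and -0.06, and WARS2 for tryptophan -0.01 and -0.18. HARS2, LARS2, FARS2, AARS2, TARS2 and IARS2 had values between -0.05 and 0.08 in both knockdowns, and none passed. PARS2 for proline had 0.18 and 0.03, with intervals of -0.06 to 0.42 and -0.21 to 0.27. SARS2 had the largest fitted changes of the uncalled genes, 0.29 and -0.59, with intervals of -0.31 to 0.89 and -1.26 to 0.07, so neither direction was resolved at its depth.

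Of the cytosolic enzymes that did not pass, the value farthest from 0 was that of LARS1 in each knockdown, -0.12 and -0.20 on the log2 scale. HARS1 for histidine had 0.02 and 0.00, SARS1 0.05 and 0.11, and VARS1, the cytosolic counterpart of VARS2, 0.01 and -0.04. TARS3 had -0.07 and 0.04 with wider intervals, -0.30 to 0.15 and -0.18 to 0.26, and its better known counterpart TARS1 had -0.11 and -0.09.

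The 13 cytosolic synthetases listed as ATF4 targets moved little, though most leaned lower against shCTR. None passed in any of the 3 comparisons in edgeR or DESeq2. Of all genes, edgeR called 16.5% in shMETTL3, 6.69% in shMETTL14 and 12.1% in the direct comparison. At an unadjusted p under 0.05 there were 0 in shMETTL3, 3 lower in shMETTL14 and 0 in the direct comparison, and the smallest adjusted p-values in edgeR were 0.208, 0.0711 and 0.51 for shMETTL3, shMETTL14 and the direct comparison. Their median log2 fold changes were -0.06, -0.04 and 0.01. Of the 13, 15.4% were above 0 in shMETTL3 and 7.69% in shMETTL14, beside 28.6% and 57.1% of the other 7 cytosolic genes. Among all genes tested it was 50.5% and 50%. The 95% interval lay within 1.25-fold for 13, 12 and 13 of the ATF4-listed synthetases. LARS1 for leucine came closest, at 389 and 354 CPM in shCTR, 357 and 326 in shMETTL3, and 330 and 318 in shMETTL14. The other 7 cytosolic genes held all 3 cytosolic calls in each knockdown, all of them lower. That was 42.9% of the 7, beside 7.73% and 3.26% of all genes passing as lower.

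WARS1, which is also known to be induced by interferon-gamma, was at 943 and 944 CPM in shCTR, 943 and 918 in shMETTL3, and 940 and 908 in shMETTL14. Its log2 fold changes were -0.02 and -0.03, with intervals of -0.13 to 0.09 and -0.14 to 0.08. Of the 13 tested genes of the interferon-gamma list, SOCS1 rose and IFNGR1 and JAK2 fell in shMETTL3, and SOCS1 and IFNGR1 rose and GBP4 and PSMB9 fell in shMETTL14. That was 23.1% and 30.8% of the list, beside 16.5% and 6.69% of all genes. DESeq2 did not call IFNGR1 in either knockdown or GBP4 in shMETTL14. SOCS1, a feedback inhibitor of JAK signalling, had log2 fold changes of 0.59 and 0.93.

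The other genes of the amino acid response moved both ways in shMETTL3 and leaned lower in shMETTL14. Of 29 tested, 5 rose and 1 fell in shMETTL3, 20.7% called beside 16.5% of all genes. In shMETTL14, 4 fell and none rose, 13.8% called beside 6.69% of all genes. Above 0 were 55.2% of the 29 in shMETTL3 and 24.1% in shMETTL14, beside 50.5% and 50% of all genes. TRIB3, a pseudokinase induced by ATF4, was at 364 and 391 CPM in shCTR, 500 and 529 in shMETTL3, and 366 and 360 in shMETTL14, so only the shMETTL3 libraries stood apart. The arginine and lysine importer SLC7A1 had a log2 fold change of 0.36 in shMETTL3 and 0.12 in shMETTL14, and passed in the first only. ASNS, which makes asparagine, had -0.08 and -0.24 and passed in shMETTL14 only. The mitochondrial folate enzyme MTHFD2 fell in both, by 0.20 and 0.34 on the log2 scale. Directly compared, 9 genes of the list were higher in shMETTL3 and 1 was lower, 34.5% called beside 12.1% of all genes. TRIB3 was among the higher, by 0.50. The median of the list was 0.14, and 72.4% of the 29 were above 0, beside 49.7% of all genes. ATF4 mRNA itself had log2 fold changes of -0.08 and -0.07, neither past the threshold, and its activity is set largely at translation, which these libraries do not measure.

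**Figure D4:**
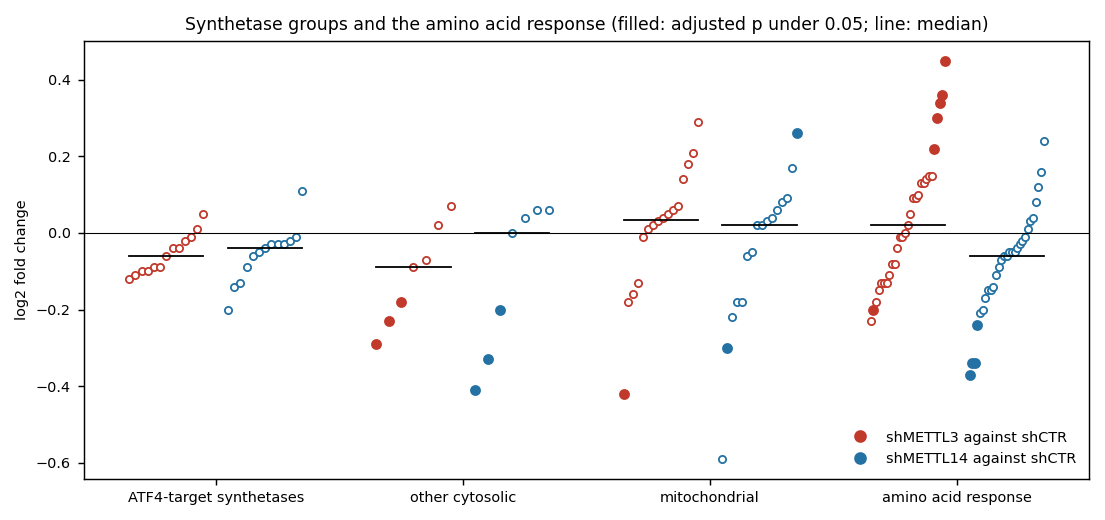
Log2 fold change against shCTR of the 13 ATF4-listed cytosolic synthetases, the other 7 cytosolic synthetases, the 16 mitochondrial synthetases and the 29 tested genes of the amino acid response, 1 point per gene, filled where the adjusted p was under 0.05, with the median as a line. The ATF4-listed synthetases have no filled point, while the amino acid response has 5 above and 1 below 0 in shMETTL3 and 4 below 0 in shMETTL14.

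Within the multi-synthetase complex, 2 of the 7 enzymes, KARS1 and RARS1, fell in each knockdown, and both are among the synthetases named above. That is 28.6%, beside 7.73% and 3.26% lower among all genes. In the level range of the synthetases, 1100 and 423 of 8304 genes passed as lower. The median log2 fold changes of the 7 enzymes were -0.10 and -0.13. Of the 6 scaffold and trans-editing genes none passed in edgeR or DESeq2, with 1 lower in shMETTL3 and 3 lower in shMETTL14 at an unadjusted p under 0.05. AIMP1, a scaffold of the complex to which the arginyl enzyme binds, was at 85.4 and 80.2 CPM in shCTR, 78.2 and 78.5 in shMETTL3, and 69.5 and 75.1 in shMETTL14, with an adjusted p of 0.0959 in edgeR for shMETTL14.

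Of the 21 genes of tRNA maturation, export and delivery, EEF1A1, SSB and POP1 fell in shMETTL3, 14.3% beside 7.73% of all genes. None passed in shMETTL14, where 6.69% of all genes were called. At an unadjusted p under 0.05, 1 was higher and 4 were lower in shMETTL14. DESeq2 called 2 in shMETTL3 and 0 in shMETTL14. EEF1A1, which brings charged tRNA to the ribosome, was at 21151 and 21763 CPM in shCTR, 18888 and 18536 in shMETTL3, and 19461 and 20587 in shMETTL14. SSB, the La protein that binds new tRNA ends, had log2 fold changes of -0.26 and -0.19, and POP1 of RNase P had -0.35 and -0.04. RPP40, another RNase P subunit, was the only gene of the 21 that differed directly between the knockdowns, at 0.34. That was 4.76% of the 21, beside 12.1% of all genes. DESeq2 did not call RPP40.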

How the data were processed

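The study's methods describe oligo(dT)-selected RNA, random-primed cDNA and HiSeq sequencing. The authors deposited raw read counts per gene, not normalized. The submitters' processing notes name HTSeq 0.6.1, and the genome build is hg38. The aligner, annotation release and strand setting are not given in the sources used here, so overlapping genes are uncertain. Library totals were 19292574 to 20115304 reads, of which 0.635 to 0.703% fell on 986 identifiers outside the annotation. Counts were filtered with filterByExpr (minimum count 10), scaled by TMM and fitted over all 6 libraries with edgeR 4.0.16 (R 4.3.3), group as the only term. Calls needed an adjusted p under 0.05 over 17686 genes. The pipeline was tested on simulated counts. Symbols came from a gene name table and GENCODE 29. Levels per kb used the longest protein-coding transcript. Values per library were given for every synthetase past the threshold and for WARS1, KARS1, GARS1 and QARS1; FARSA, LARS1, MARS2, ATF4, AIMP1, CEBPG, PPP1R15A and GCN1 were added after their values were seen. From other lists up to 6 genes per comparison were named. The synthetases and the lists were chosen with earlier results of these data known. Alternatives were DESeq2 1.42.0, other scalings, no filter, compared groups only, a replicate block, each library left out and, added after seeing the data, removal of GC and length trends with mgcv 1.9.3.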

Additional observations from a re-analysis of the deposited data

Results flagged for a closer look

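The following genes differed between the responses to the METTL3 and METTL14 hairpins in a direct test of shMETTL3 against shMETTL14 (edgeR's quasi-likelihood test, adjusted p under 0.05). Among the synthetases these were CARS2 at -0.27 and EARS2 at 0.24 on the log2 scale. In the amino acid response they were TRIB3 at 0.50, CEBPB at 0.34, ATF3 at 0.29, DDIT3 at 0.28, SESN2 at 0.27, SLC7A1 at 0.24, DDIT4 at 0.22, CEBPG at 0.21 and PPP1R15A at 0.19, and GCN1 was lower at -0.19. DDIT3 overlaps MARS1 on the opposite strand. In the interferon-gamma list they were PSMB9 at 0.87, TAP1 at 0.33, JAK2 at -0.27 and IFNGR1 at -0.63. Of the tRNA genes, RPP40 was at 0.34 and PRORP at -0.46. DESeq2 did not call CARS2, EARS2, DDIT3, PPP1R15A, TAP1, RPP40 or PRORP in this comparison. The targeted genes METTL14, at 0.89, and METTL3, at -0.73, differed as their labels state.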

How the results depend on the processing

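NARS2 in shMETTL3 and FARSB in shMETTL14 passed under all 11 alternatives, and RARS1 under 10 in shMETTL3 and 9 in shMETTL14. KARS1 passed under 6 in each knockdown, FARSB in shMETTL3 under 6, VARS2 under 7, NARS2 in shMETTL14 under 9, CARS2 under 5 and EARS2 under 4. DESeq2 called 1757, 712 and 1242 genes for shMETTL3, shMETTL14 and the direct comparison, against 2912, 1184 and 2148, and 0 synthetases in the direct comparison. With its size factors in edgeR that count was 1, in fits on the compared groups only it was 4, and with no filter on low counts it was 0. With no filter, shMETTL14 had 766 genes and 3 synthetases called.

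Leaving out 1 library at a time gave 1 to 7 synthetases for shMETTL3, 1 to 8 for shMETTL14 and 0 for the direct comparison, and 1102 to 3569, 341 to 1913 and 942 to 1123 genes. Without shCTR replicate 2 the counts of synthetases were 7 and 8. Without a shMETTL3 library they were 2 and 1 in shMETTL3, and without either shMETTL14 library 1 in shMETTL14. The lone library left is assumed to vary like the other groups. The causes were not tested.

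With trends on GC content and length removed, an alternative chosen after seeing the data, 8 synthetases passed in shMETTL3, 7 in shMETTL14 and 5 in the direct comparison. NARS2, RARS1 and KARS1 remained among the 8. FARSB in shMETTL3 was then at -0.16 with an adjusted p of 0.0526 in edgeR. Differences between replicates 1 and 2 were hardly correlated between the groups (correlations over genes of 0.061, 0.005 and -0.02). No source says whether equal replicate numbers mark a shared culture or day. A replicate block gave 4, 6 and 2 synthetases.

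Changes near 0 that passed nowhere turned sign. With 1 library left out, WARS1 in shMETTL3 ran from -0.04 to 0.000608, EARS2 in shMETTL3 from -0.07 to 0.09 and GARS1 in shMETTL14 from -0.05 to 0.01. In the direct comparison KARS1 ran from -0.02 to 0.05, RARS1 from -0.03 to 0.11 and WARS1 from -0.01 to 0.03. With scaling to library size alone, WARS1 in shMETTL3 was at 0.03 and GARS1 in shMETTL14 at 0.00796. With the trends removed, EARS2 in shMETTL3 was at -0.02 and WARS1 in the direct comparison at -0.01.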
